A study of Sus scrofa with 6 samples.

Results

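The genes described here are the cell proliferation genes of the pig abdominal aorta, a list of 38 genes that dividing cells use to copy their DNA and to separate the copies. The list was divided into 13 replication genes and 25 mitosis genes. Members were found by gene name in the table of 30477 genes, which gave 30 of the 38, namely 10 replication genes and 20 mitosis genes. A further 3 members, CDT1, BUB1B and NUSAP1, were found through their Ensembl identifiers and are described apart. MCM5, RRM2, MKI67, CCNA2 and AURKA were not matched and are not analysed here.

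Replication begins when CDC6 and CDT1 load the MCM helicase ring onto origins of DNA, a step called licensing. Cyclin E with its kinase then drives entry into S phase, PCNA clamps the polymerases to the template, and enzymes such as thymidylate synthase (TYMS) supply nucleotides. Mitosis starts with CDK1 and its B-type cyclins, after which the spindle is built by motors and kinases, kinetochores attach chromosomes to it, and a checkpoint holds the cell back until all are attached. The ubiquitin ligase APC/C with CDC20 then opens anaphase. The MuvB, FOXM1 and E2F factors switch the genes of these steps on in waves. In the healthy adult artery smooth muscle and endothelial cells seldom divide, and in atherosclerotic lesions dividing macrophages, smooth muscle cells and lymphocytes have all been described.

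Male Wuzhishan miniature pigs received normal chow (NC, 3 pigs) or a diet high in fat, cholesterol and fructose (HFCF, 3 pigs) for 6 months, and both groups were otherwise untreated and carried no engineered allele. The sample labels give an age of 3 to 4 months, and the methods of the study give an older age at purchase. RNA of the abdominal aorta was sequenced as 1 library per pig, so each value averages every cell type of the tissue sampled. In such bulk samples fewer cells of a type and less RNA per cell cannot be told apart, and neither can more dividing cells and more RNA in each of them.

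The values are FPKM, fragments scaled to the exon length of the gene and to the mapped reads of the library, so that levels can be set beside each other between genes. The read depth is unknown, and relative depths estimated from the steps between low values lay between 1 and 1.37 in the NC libraries and between 1.03 and 1.07 in the HFCF libraries. A single value therefore has no counting interval here, and its precision was read from the spread among pigs. Contractile smooth muscle markers summed to 15914 to 22729 FPKM in the NC libraries and to 7997 to 12892 FPKM in the HFCF libraries. The labelled tissue thus carried the RNA of an arterial wall in all 6, but its make-up differed between pigs. Adipocyte markers summed to 181, 284 and 36.9 FPKM in NC pigs 1, 2 and 3. In HFCF pigs 1, 2 and 3 they summed to 98.6, 71.3 and 89.0 FPKM. The fibroblast sums were 2318, 2684 and 1251 FPKM in the NC pigs and 1626, 1760 and 2826 FPKM in the HFCF pigs. The part of these differences in the member values was not tested. Differences were tested on log2(FPKM + 0.1) with limma, and p-values were adjusted over the 15384 genes with a mean of at least 0.1 FPKM. A gene is called changed at an adjusted p under 0.05. A log2 fold change here is HFCF minus NC on that scale, and the added 0.1 shrinks it in genes of low level.

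Part of the mitosis genes were higher in the aorta of HFCF pigs, and most replication genes were not called. Of the 20 mitosis genes 7 rose and 0 fell, namely TOP2A, CCNB1, KIF11, TPX2, CDC20, NUF2 and AURKB. The median log2 fold change over all 20 was 1.36, and each of the 20 values was above 0. Of the 10 replication genes 2 rose, CCNE2 and PCNA, and 0 fell. The median of the 10 was 0.41, close to the median of 0.32 over all tested genes.

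These counts stand on a broad background. Over all tested genes 22.8% were called higher in HFCF pigs and 6.16% were called lower. The 35.0% of mitosis genes and 20.0% of replication genes called higher are to be read against the first of these shares, and the replication share was below it. The DEG rule of the study, a ratio of group means above 2 or below 0.5 with an unadjusted p under 0.05, took 14 of the 20 mitosis genes and 3 of the 10 replication genes as higher, against 20.7% of all tested genes. By that rule 0 members were lower, against 4.82% of all tested genes. The 3 HFCF values lay above the 3 NC values in 15 of the 20 mitosis genes, which is 75.0% of them, and in 3 of the 10 replication genes, against 36.1% of all tested genes. They lay below in 0 members, against 12.1% of all tested genes. All 30 members passed the filter on low values, and 4 of them, KIF11, CENPE, TTK and NDC80, passed it only through their level in the HFCF pigs, so that they had to differ to be tested. Of the other 16 mitosis genes 6 rose. KIF11, CENPE and TTK are also among the 14 mitosis genes of the DEG rule and the 15 without overlap.

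**Figure D1:**
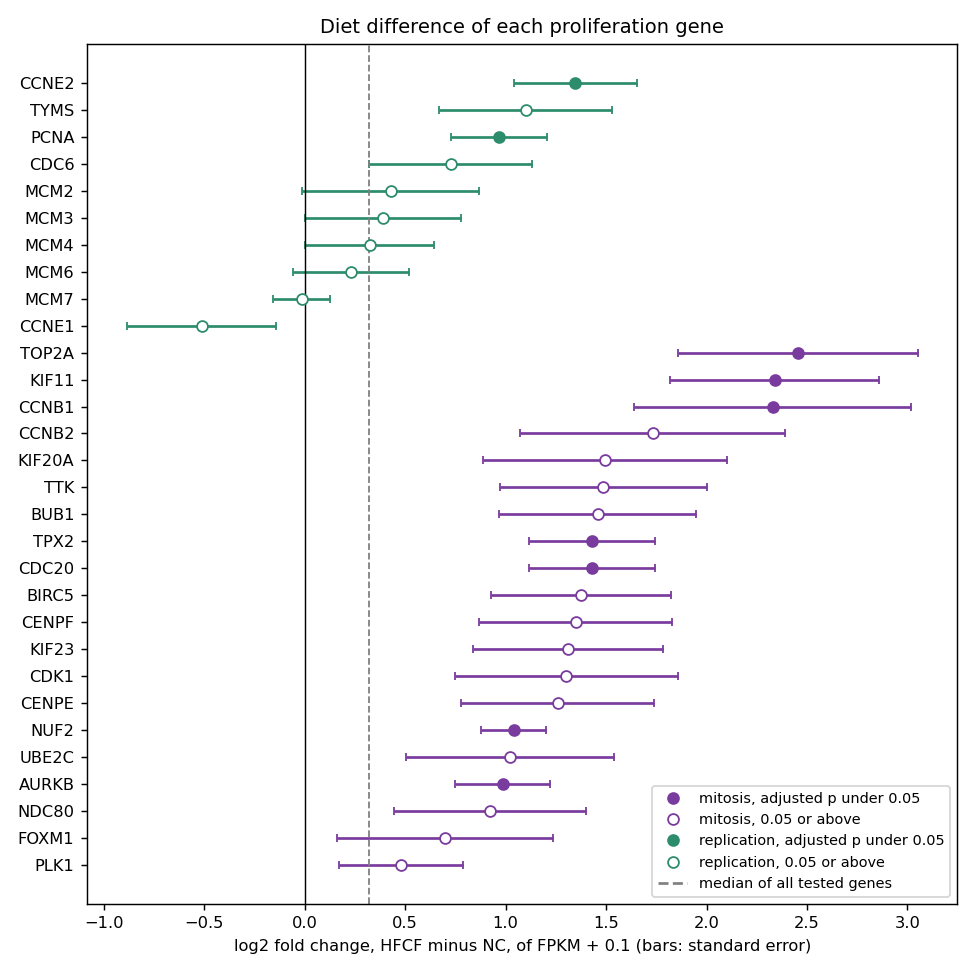
Log2 fold change of each of the 30 members (HFCF minus NC, on the log2(FPKM + 0.1) scale) with its standard error, for replication genes and mitosis genes, with the median of all tested genes marked. The 20 mitosis genes lie between 0.48 and 2.46 and the 10 replication genes between -0.51 and 1.35.

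Of the cyclins that drive entry into S phase, CCNE2 rose and CCNE1 was not called. CCNE2, which encodes cyclin E2 (ENSSSCG00000006095), stood at 0.393, 0.344 and 0.616 FPKM in the NC pigs and at 1.55, 1.11 and 1.20 FPKM in the HFCF pigs. The lowest HFCF value was above the highest NC value. CCNE2 rose 2.85-fold in mean FPKM, with a log2 fold change of 1.35 ± 0.31 (SE, n = 3 against 3, limma adjusted p = 0.0184). Its paralog CCNE1 stood at 1.04, 1.14 and 2.06 FPKM in the NC pigs and at 1.36, 0.837 and 0.663 FPKM in the HFCF pigs, and the groups overlapped. The log2 fold change of CCNE1 was -0.51 ± 0.37 (limma adjusted p = 0.335). Without NC pig 1 or NC pig 2 the adjusted p of CCNE2 in limma was 0.0649 and 0.0606.

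Of the licensing and helicase genes 0 of 6 were called in either direction, against 28.9% of all tested genes. The MCM subunits form the ring that unwinds DNA, and MCM7 was the most abundant member of all. It stood at 15.9, 16.8 and 19.4 FPKM in the NC pigs and at 16.3, 17.1 and 17.99 FPKM in the HFCF pigs, a ratio of means of 0.986. Its log2 fold change was -0.02 ± 0.14 (limma adjusted p = 0.941), the closest to 0 of the 30. The other MCM genes had log2 fold changes of 0.43 (MCM2), 0.39 (MCM3), 0.32 (MCM4) and 0.23 (MCM6), all with overlapping groups, and all 4 were below 0 after quantile normalization. CDC6, the loader of the ring, stood at 0.0908 to 0.111 FPKM in the NC pigs and at 0.136 to 0.402 FPKM in the HFCF pigs. Its groups did not overlap, and its log2 fold change was 0.73 ± 0.41 (limma adjusted p = 0.218).

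PCNA, the sliding clamp of the polymerases (ENSSSCG00000030642), stood at 3.64, 3.90 and 3.84 FPKM in the NC pigs and at 10.4, 7.08 and 5.76 FPKM in the HFCF pigs. All NC pigs lay close together and below every HFCF pig, and HFCF pig 1 was the highest. PCNA rose 2.04-fold, with a log2 fold change of 0.97 ± 0.24 (limma adjusted p = 0.0234). The call was lost without NC pig 1, 2 or 3 or HFCF pig 2, with limma adjusted p between 0.0565 and 0.0793. TYMS stood at 1.45, 0.757 and 2.10 FPKM in the NC pigs and at 4.54, 2.87 and 1.99 FPKM in the HFCF pigs. It passed the DEG rule with a ratio of 2.18, although HFCF pig 3 was below NC pig 3, and its limma adjusted p was 0.0976.

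The mitotic kinase and its cyclins were at low levels in chow-fed pigs. CDK1, the kinase that starts mitosis, stood at 0.211, 0.0189 and 0.101 FPKM in the NC pigs and at 0.759, 0.346 and 0.191 FPKM in the HFCF pigs. Its groups overlapped, since HFCF pig 3 was below NC pig 1, and the log2 fold change was 1.3 ± 0.55 (limma adjusted p = 0.118). CCNB1, cyclin B1 (ENSSSCG00000029326), stood at 0.489, 0.0259 and 0.481 FPKM in the NC pigs and at 3.11, 1.26 and 1.15 FPKM in the HFCF pigs. The groups did not overlap, NC pig 2 was far below the other NC pigs, and HFCF pig 1 was far above the other HFCF pigs. CCNB1 rose 5.55-fold, with a log2 fold change of 2.33 ± 0.69 (limma adjusted p = 0.0427). This call did not survive the removal of any single library, with limma adjusted p between 0.0555 and 0.12. CCNB2, cyclin B2, had a ratio of 3.20 without overlap and a limma adjusted p of 0.0893.

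TOP2A, the topoisomerase that untangles sister chromatids (ENSSSCG00000017473), stood at 0.398, 0.0396 and 0.347 FPKM in the NC pigs and at 2.93, 1.35 and 1.07 FPKM in the HFCF pigs. The lowest HFCF value was above the highest NC value. Its mean rose from 0.261 ± 0.194 to 1.78 ± 1.004 FPKM (SD, n = 3), a ratio of 6.82, and its log2 fold change of 2.46 ± 0.60 was the highest of the 30 members (limma adjusted p = 0.0228). Without HFCF pig 1 the limma adjusted p was 0.0655, and without HFCF pig 2 it was 0.0543. FOXM1, the transcription factor of the late cell cycle genes, stood at 1.23, 0.261 and 0.898 FPKM in the NC pigs and at 1.79, 1.06 and 0.836 FPKM in the HFCF pigs. The groups overlapped, and the log2 fold change was 0.70 ± 0.54 (limma adjusted p = 0.362).

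**Figure D2:**
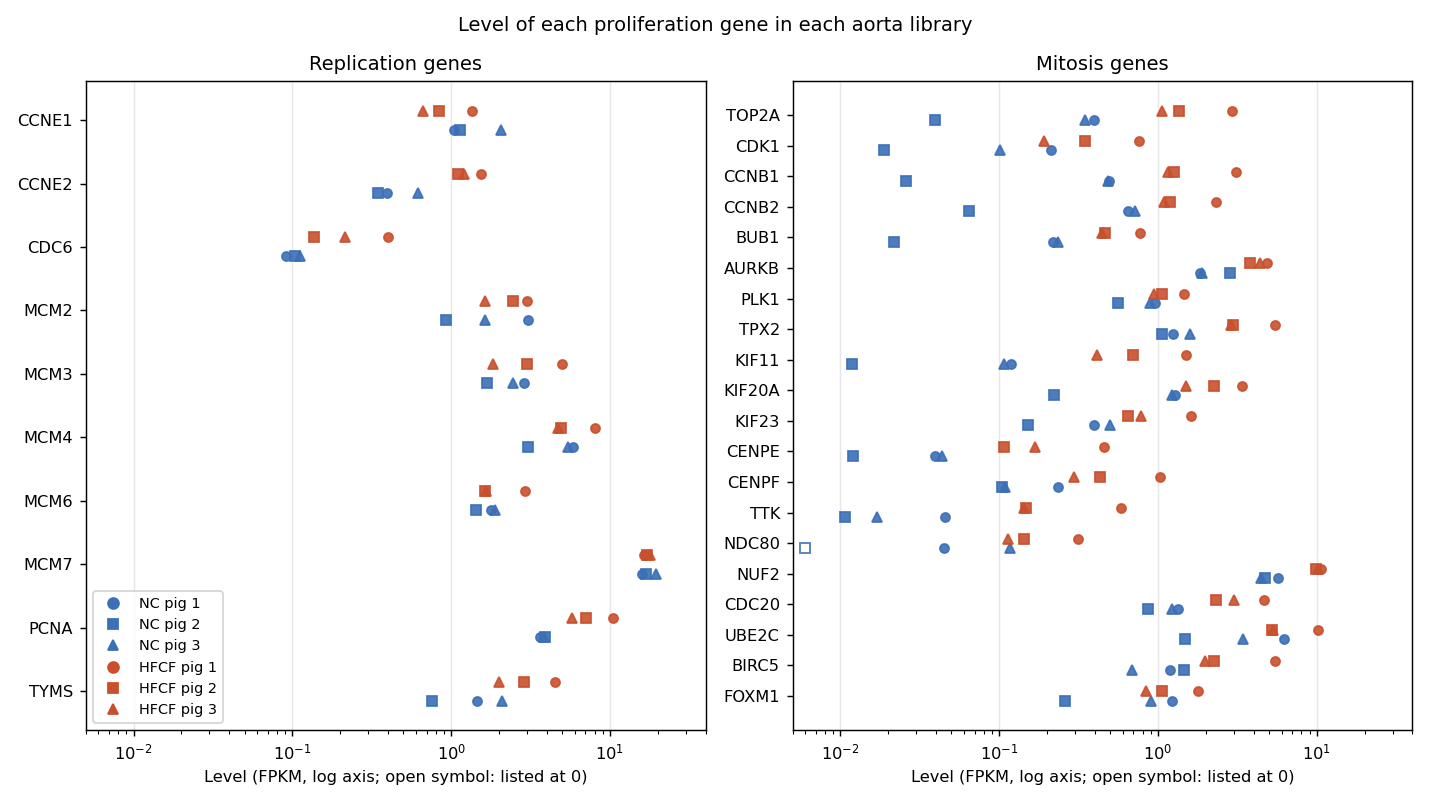
FPKM of the members in each of the 6 pigs on a log axis, with 1 symbol per pig, NC in blue and HFCF in red, for the replication genes (left) and the mitosis genes (right). An open symbol is a value listed at 0, drawn at the left edge. HFCF pig 1 is the highest of the 6 in each of the 20 mitosis genes, and NC pig 2 is the lowest NC pig in 17 of them.

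Of the 4 spindle genes KIF11 and TPX2 rose, and the HFCF values lay above the NC values in all 4, against 36.1% of all tested genes. KIF11, the motor that pushes the spindle poles apart (ENSSSCG00000010471), stood at 0.118, 0.0119 and 0.107 FPKM in the NC pigs and at 1.51, 0.693 and 0.414 FPKM in the HFCF pigs. Every HFCF pig was above every NC pig. KIF11 rose 11.04-fold in mean FPKM, from a level at which a value may rest on few fragments and at which it was tested only through the HFCF pigs, with a log2 fold change of 2.34 ± 0.52 (limma adjusted p = 0.0172). TPX2, which activates Aurora A and nucleates spindle microtubules (ENSSSCG00000007235), stood at 1.24, 1.06 and 1.60 FPKM in the NC pigs and at 5.48, 2.98 and 2.89 FPKM in the HFCF pigs. It rose 2.92-fold, with a log2 fold change of 1.43 ± 0.31 (limma adjusted p = 0.0160). The adjusted p of KIF11 without NC pig 2 was 0.0555, and that of TPX2 without NC pig 1 or 2 was 0.0594 and 0.0556 (limma). The kinesins of cell division KIF20A and KIF23 had ratios of 2.62 and 2.91, with limma adjusted p of 0.107 and 0.0776.

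AURKB and BIRC5 encode the kinase and the survivin subunit of the chromosomal passenger complex, which corrects faulty attachments. AURKB (ENSSSCG00000028924) stood at 1.83, 2.84 and 1.89 FPKM in the NC pigs and at 4.87, 3.80 and 4.41 FPKM in the HFCF pigs, without overlap. It rose 1.996-fold, with a log2 fold change of 0.99 ± 0.24 (limma adjusted p = 0.0219). The call was lost without NC pig 1, NC pig 3, HFCF pig 1 or HFCF pig 3, with limma adjusted p between 0.0575 and 0.0762. BIRC5 stood at 1.18, 1.46 and 0.688 FPKM in the NC pigs and at 5.49, 2.26 and 1.97 FPKM in the HFCF pigs, without overlap, and its limma adjusted p was 0.0572. In both of these genes NC pig 2 was the highest NC pig, unlike most mitosis genes. Among the checkpoint kinases, BUB1 had a ratio of 3.55 and TTK a ratio of 12.02, both without overlap, with limma adjusted p of 0.0636 and 0.0687. TTK, like KIF11, was tested only through its level in the HFCF pigs. PLK1, the Polo kinase of spindle assembly and cytokinesis, had overlapping groups and the lowest log2 fold change of the mitosis genes, 0.48 ± 0.31 (limma adjusted p = 0.279), which was -0.19 after quantile normalization.

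NUF2 had the smallest adjusted p of the 30 members and differed from its complex partner in level. It is a subunit of the NDC80 complex, which grips microtubules at the kinetochore (ENSSSCG00000006333), and it stood at 5.71, 4.75 and 4.43 FPKM in the NC pigs and at 10.62, 9.94 and 10.199 FPKM in the HFCF pigs. The pigs of a group lay close together and the groups were far apart. NUF2 rose 2.07-fold, with a log2 fold change of 1.04 ± 0.16 (limma adjusted p = 0.00533), and it passed the threshold under all 15 alternatives. NDC80 itself stood at 0.0448, 0 and 0.117 FPKM in the NC pigs and at 0.315, 0.142 and 0.113 FPKM in the HFCF pigs, with overlap and a limma adjusted p of 0.187. The level of NUF2 in the NC pigs, 4.96 ± 0.669 FPKM (SD, n = 3), was thus far above that of NDC80, 0.0539 ± 0.059 FPKM, on the same per-length scale. The other subunits, SPC24 and SPC25, stood at 0.623 ± 0.214 and 0.117 ± 0.038 FPKM in the NC pigs and at 1.47 ± 0.396 and 0.475 ± 0.180 FPKM in the HFCF pigs. Both rose, with log2 fold changes of 1.13 and 1.38 (limma adjusted p = 0.0483 and 0.0323). The call of SPC24 held only without HFCF pig 3 and that of SPC25 only without NC pig 3 or HFCF pig 3, and without each of the other libraries their limma adjusted p lay between 0.0694 and 0.131 and between 0.0524 and 0.0958. CENPE and CENPF, large kinetochore proteins, had ratios of 7.66 and 3.91 without overlap and limma adjusted p of 0.0899 and 0.0748. CENPE, like NDC80, was tested only through its level in the HFCF pigs.

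CDC20, the activator of APC/C (ENSSSCG00000003949), stood at 1.34, 0.865 and 1.22 FPKM in the NC pigs and at 4.65, 2.32 and 3.03 FPKM in the HFCF pigs. Every HFCF pig was above every NC pig. CDC20 rose 2.92-fold, with a log2 fold change of 1.43 ± 0.32 (limma adjusted p = 0.0167), and without NC pig 2 its limma adjusted p was 0.056. UBE2C, the ubiquitin-conjugating enzyme of the same ligase, stood at 6.25, 1.47 and 3.45 FPKM in the NC pigs and at 10.1, 5.25 and 5.33 FPKM in the HFCF pigs. Its groups overlapped through NC pig 1, and the log2 fold change was 1.02 ± 0.52 (limma adjusted p = 0.179).

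Of the 3 members found through their identifiers, BUB1B rose. This gene encodes the checkpoint protein BubR1 (ENSSSCG00000004782), and it stood at 0.207, 0.0352 and 0.0930 FPKM in the NC pigs and at 1.79, 0.818 and 0.748 FPKM in the HFCF pigs, without overlap. Its ratio was 10.0 and its log2 fold change 2.51 ± 0.47 (limma adjusted p = 0.00988), and it passed the threshold under all 14 alternatives run for it. CDT1, which loads the MCM ring with CDC6, and NUSAP1, a microtubule-binding spindle protein, had log2 fold changes of 0.54 and 0.62 with overlapping groups (limma adjusted p = 0.484 and 0.185). With these 3 included, 2 of the replication genes and 8 of the mitosis genes rose, against 22.8% of all tested genes. The lists then held 10 replication genes by name and 1 by identifier, and 20 mitosis genes by name and 2 by identifier.

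Within the groups, HFCF pig 1 stood high and NC pig 2 stood low in the members. HFCF pig 1 had the highest of the 3 HFCF values in 29 of the 30 members, against 42.5% of all tested genes. In the mitosis genes its value was a median 2.13 times the mean of the other HFCF pigs, and in the replication genes 1.71 times, against 1.03 times over all tested genes. NC pig 2 had the lowest of the 3 NC values in 17 of the 20 mitosis genes and in 6 of the 10 replication genes, against 27.9% of all tested genes. Leaving out NDC80, which was listed at 0 in NC pig 2, the mean of NC pigs 1 and 3 was a median 3.29 times the value of NC pig 2 in the mitosis genes, 1.41 times in the replication genes and 0.979 times over all tested genes. Among the same mitosis genes this ratio was highest in CCNB1, at 18.8, and it passed 5 in 7. The median coefficient of variation of a mitosis gene was 47.7% in the HFCF pigs and 63.1% in the NC pigs, against 23.8% and 22.4% over all tested genes. In NC pig 2, 9 of the 20 mitosis genes were under 0.1 FPKM, CCNB1 among them. The values over all tested genes were not matched for level, and the part of low levels in these ratios and this spread was not tested.

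Without HFCF pig 1, 4 of the 20 mitosis genes and 2 of the 10 replication genes rose, with medians of 0.97 and 0.16, against 18.1% of all tested genes. Without NC pig 2, 3 mitosis genes and 0 replication genes rose, with medians of 1.08 and 0.15, against 15.2% of all tested genes. In both cases the share of mitosis genes called was close to that of all tested genes. Without NC pig 1, 4 mitosis genes and 0 replication genes rose, against 12.7% of all tested genes. Without NC pig 3, 5 mitosis genes and 1 replication gene rose, against 18.2% of all tested genes. Without HFCF pig 2 the numbers were 5 and 1, against 14.9%, and without HFCF pig 3 they were 5 and 2, against 18.2%. The log2 fold change was above 0 in all 20 mitosis genes under each of the 6 removals of a library. Exact two-sided permutation of 6 values reaches p = 0.1 at the least, so none of these genes can be called by that test.

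**Figure D3:**
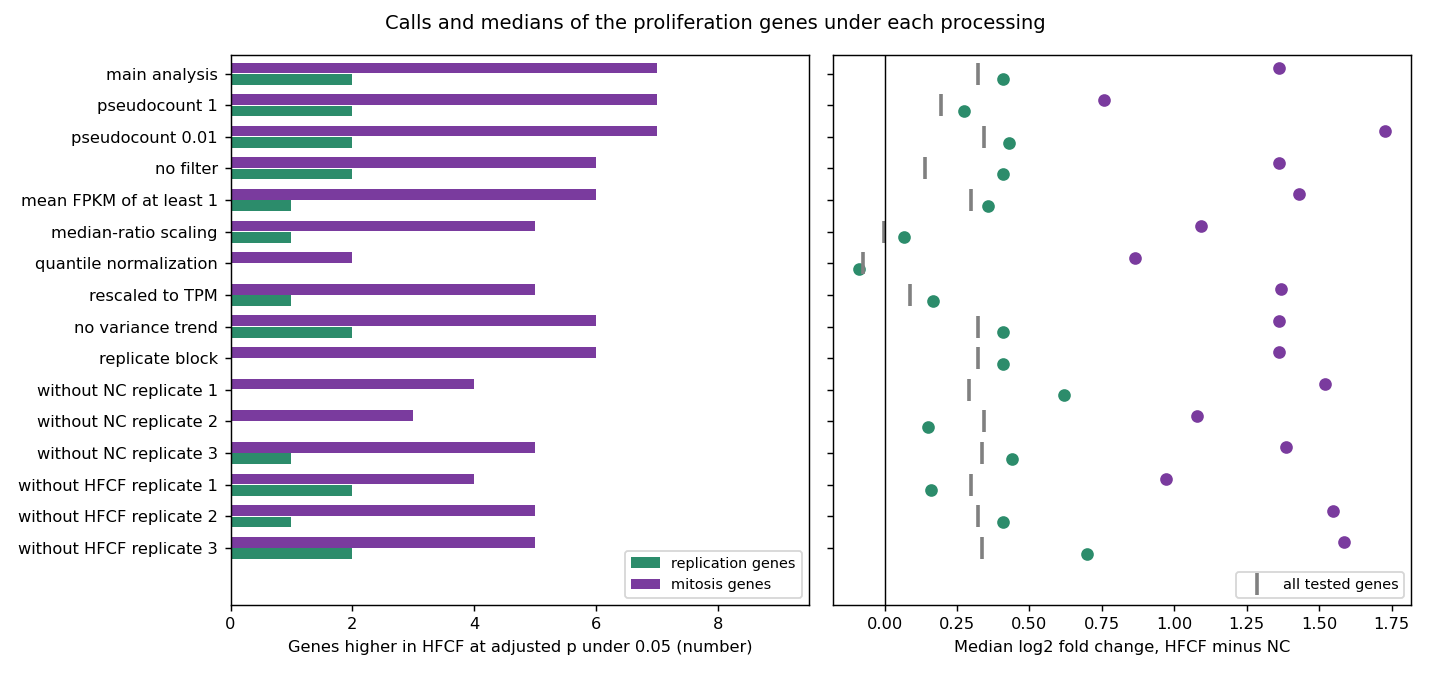
Number of replication and mitosis members called higher in HFCF pigs (left, bars) and their median log2 fold change (right, points), beside the median of all tested genes (grey ticks), under the analysis as reported and each of the 15 alternatives. The mitosis median stays between 0.76 and 1.73, and the replication median between -0.0878 and 0.70.

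The number of calls moved with the scaling of the libraries. The FPKM of the HFCF libraries summed to 330222 to 338690 and those of the NC libraries to 272207 to 287141, and the median gene was 0.32 higher in HFCF pigs on the log2 scale. Median-ratio scaling moved this median to -0.00, and the calls over all genes went from 78.7% higher to 50.8% higher. Relative to that median the mitosis genes were 1.04 higher and the replication genes 0.09 higher in the values as deposited. After median-ratio scaling 5 of the 20 mitosis genes and 1 replication gene rose, against 13.2% of all tested genes. After quantile normalization 2 mitosis genes and 0 replication genes rose, which is below the 11.4% of all tested genes, and CCNE1 fell (log2 fold change -1.14, limma adjusted p = 0.0451). NUF2 passed after median-ratio scaling, quantile normalization and TPM alike, as did KIF11 with the limit given above, and PCNA, AURKB and CCNB1 passed after none of the 3.

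Markers of macrophages rose, and those of lymphocytes passed the test in part. All 11 macrophage markers tested rose, against 22.8% of all tested genes, and their summed level was 46.5 to 49.8 FPKM in the NC pigs and 1300, 562.6 and 542.04 FPKM in HFCF pigs 1, 2 and 3, while LYZ was listed at 0 in all 6 libraries. Of the 10 T cell markers 3 rose, and their sum was 1.23 to 1.73 FPKM in the NC pigs and 23.9, 5.05 and 5.18 FPKM in the HFCF pigs. Of the 6 B and plasma cell markers 1 rose, CD79A, a share below that of all tested genes. The sums were 6.91 to 11.4 FPKM in the NC pigs and 35.9 to 53.4 FPKM in the HFCF pigs. CD79A made up most of the sum in every pig and nearly all of it in HFCF pigs 2 and 3. In HFCF pig 3 it stood at 34.12 FPKM, so these sums mainly follow this gene. The HFCF values lay above the NC values in 3 of the 6 markers, CD79A among them. HFCF pig 1, the highest in the mitosis genes, was also the highest in each of these sums. The B cell gene MS4A1, matched by identifier, stood at 1.28 FPKM in HFCF pig 1 and at 0 in the other 5 pigs. The part of these cell types in the rise of the mitosis genes was not tested.

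Markers of the wall and of blood are given beside them. Contractile smooth muscle markers fell in 6 of 8 genes, against 6.16% of all tested genes. Endothelial markers were called in 0 of 7 genes in either direction, against 28.9% of all tested genes. Of the 7, 2 had an unadjusted limma p under 0.05, TEK and KDR, both higher in HFCF pigs. The same held for 4938 of the 15384 tested genes. The median log2 fold change of the 7 was -0.15, against 0.32 over all tested genes, and only 3 of the 7 were above 0. The endothelial sum was 191.8, 215.4 and 101.5 FPKM in NC pigs 1, 2 and 3 and 241.7, 135.0 and 91.6 FPKM in HFCF pigs 1, 2 and 3. HFCF pig 1 was the highest HFCF pig in all 7 of these markers too. The erythroid sum was 178.8, 22.0 and 113.7 FPKM in NC pigs 1, 2 and 3 and 2897, 86.5 and 95.5 FPKM in HFCF pigs 1, 2 and 3, with 0 of 3 erythroid markers called. The mitosis sum was 23.8, 13.9 and 19.1 FPKM in NC pigs 1, 2 and 3 and 63.2, 37.7 and 37.0 FPKM in HFCF pigs 1, 2 and 3. HFCF pig 1 was the highest and NC pig 2 the lowest in both sums, while HFCF pigs 2 and 3 were above NC pigs 1 and 3 in the mitosis sum and below them in the erythroid sum. The part of blood cells in the values was not tested.

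**Figure D4:**
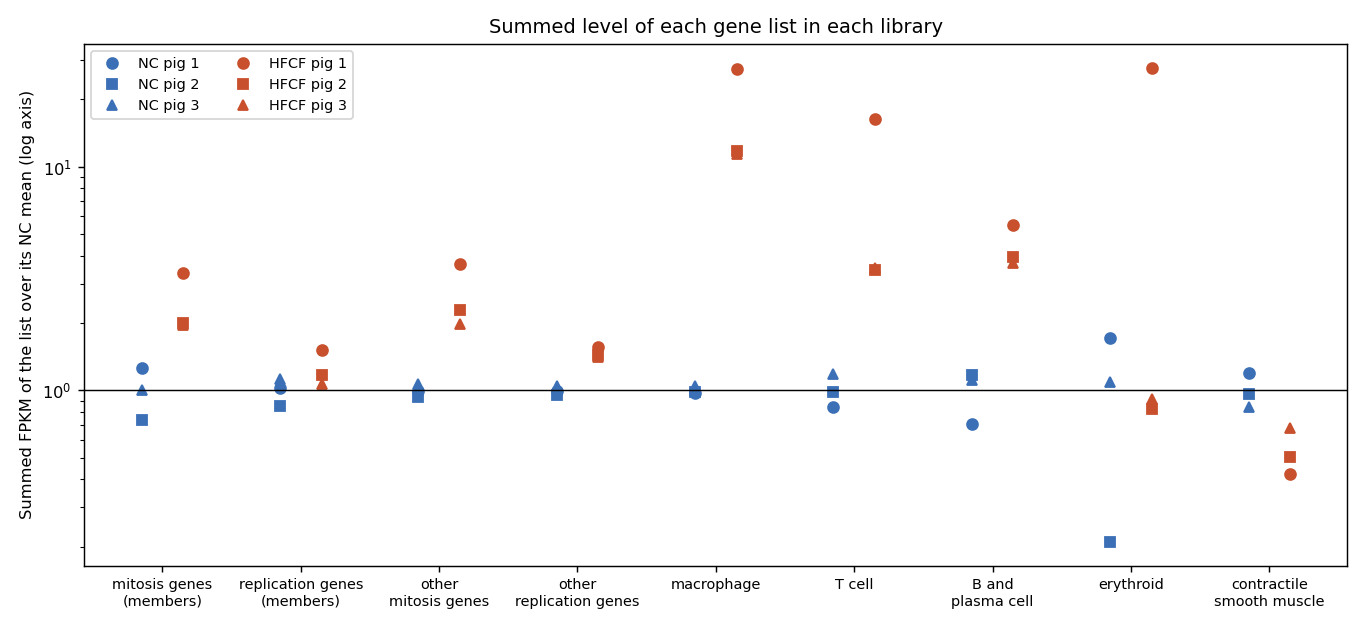
Summed FPKM of the members, of other cell cycle genes and of cell type markers in each of the 6 pigs, divided by the mean of the NC pigs, on a log axis. HFCF pig 1 has the highest sum of the mitosis members, the macrophage, the T cell and the erythroid markers.

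Other cell cycle genes, taken from lists of the same pathways, were tested in the same fit. Of 45 other mitosis genes tested 25 rose and 0 fell, with a median log2 fold change of 1.38, and 8 of the 45, SKA1 among them, passed the filter only through the HFCF pigs. Of the other 37, 20 rose. Of 40 other replication genes 10 rose and 0 fell, with a median of 0.61, and the share called higher was close to the 22.8% of all tested genes. CKS2, a subunit that binds mitotic CDK1, rose from 1.45 ± 0.462 to 16.5 ± 7.29 FPKM (SD, n = 3), with a log2 fold change of 3.39 (limma adjusted p = 0.00159). SKA1, a kinetochore protein, ANLN, the anillin of the cleavage furrow, and CENPU, a centromere protein, rose by 2.52, 2.10 and 2.04 on the log2 scale. Among the replication genes the 4 with the highest log2 fold change were RPA3, a subunit of the single-strand binding protein RPA, at 1.58, the fork protein claspin (CLSPN) at 1.496, the origin recognition subunit ORC3 at 1.49 and the dUTPase DUT at 1.42. All 4 rose, and RPA3 had the smallest limma adjusted p, 0.00166. In limma CLSPN and CENPU missed the threshold without NC pig 1 (adjusted p = 0.0551 and 0.0504), and SKA1 missed it without NC pig 1, NC pig 2 or HFCF pig 3 (0.0588, 0.0547 and 0.0512). Without NC pig 1, 7 of the 45 other mitosis genes rose, against 12.7% of all tested genes. Without NC pig 2, 9 of the 45 rose, against 15.2% of all tested genes. Between 11 and 19 rose without each of the other libraries, against 14.9% to 18.2% of all tested genes. The count of other replication genes that rose was 6 without NC pig 1 or HFCF pig 2 and 5 without NC pig 2.

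The genes that control the entry into the cycle did not move as one group. Of 8 G1 cyclins and kinases 1 rose and 2 fell, against 22.8% and 6.16% of all tested genes. The number that fell was 5 after median-ratio scaling, 4 with TPM, 3 after quantile normalization and 0 without the variance trend. Over all 15384 tested genes the numbers that fell were then 1967, 1527, 1782 and 776, against 948 in the analysis as reported. CDK2, the partner of cyclin E, stood at 71.1, 70.7 and 78.8 FPKM in the NC pigs and at 7.97, 33.8 and 35.3 FPKM in the HFCF pigs, and fell by 1.79 on the log2 scale (limma adjusted p = 0.0457). CCND1, cyclin D1, stood at 48.0, 48.2 and 55.9 FPKM in the NC pigs and at 22.5, 36.0 and 31.5 FPKM in the HFCF pigs, and fell by 0.78 (limma adjusted p = 0.0261). In both genes every HFCF pig was below every NC pig, and HFCF pig 1 was the lowest. Both calls were lost without NC pig 1, 2 or 3, with limma adjusted p of 0.108 to 0.125 for CDK2 and 0.0631 to 0.0731 for CCND1, and also without HFCF pig 2 for CDK2 (0.0517) and without HFCF pig 3 for CCND1 (0.0514). SKP2, the ubiquitin ligase subunit that degrades the inhibitor p27, rose by 1.39, and without HFCF pig 2 its limma adjusted p was 0.0501.

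Of 7 CDK inhibitors 0 were called by limma, against 28.9% of all tested genes in either direction, and 0 had an unadjusted p under 0.05. Of 18 RB, E2F and MuvB factors 5 rose, among them the activator E2F2 by 2.13, the repressor RB1 by 1.57 and the MuvB subunits LIN37 by 1.20 and LIN9 by 1.07. These 5 are 27.8% of the list, near the 22.8% of all tested genes, and E2F2, at 0.0854 FPKM in the NC pigs, passed the filter only through the HFCF pigs. After median-ratio scaling and with TPM 2 rose and 1 fell, and after quantile normalization 1 rose. The shares of all tested genes called higher were then 13.2%, 14.5% and 11.4%. Between 1 and 3 of the 18 rose when a library was left out, and 1 without NC pig 1, against 12.7% to 18.2% of all tested genes. The limma adjusted p of E2F2 was 0.0699 and 0.0678 without NC pig 1 and NC pig 2. Over the removals of a library RB1 was called only without NC pig 2 (otherwise 0.0503 to 0.113), and LIN9 in none ( 0.0522 to 0.133). Of 11 checkpoint genes 3 rose, the kinases CHEK2 by 1.68 and ATR by 1.16 and the ATR activator TOPBP1 by 0.89, while 0 of the 11 rose without NC pig 1 and 1 without HFCF pig 2. The 3 are 27.3% of the list, again near the share of all tested genes. After median-ratio scaling and with TPM 1 rose and 1 fell, and after quantile normalization 0 rose and 1 fell, against the same shares as above. Over the removals of a library CHEK2 missed the threshold only without NC pig 1 (limma adjusted p = 0.0544), and after quantile normalization it missed it too (0.0655), whereas ATR missed it without NC pig 1, NC pig 2, HFCF pig 2 or HFCF pig 3 (0.0527 to 0.0708) and TOPBP1 without NC pig 1, NC pig 3, HFCF pig 1 or HFCF pig 2 (0.0547 to 0.0713). The KEGG cell cycle genes were counted without the members found by name, which left 95 tested, with BUB1B still among them. Of these 26 rose, BUB1B included, and 7 fell, with a median of 0.43. The 28 KEGG DNA replication genes left in the same way had 6 and 0 with a median of 0.41. The shares called higher, 27.4% and 21.4%, lay near the 22.8% of all tested genes.

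**Figure D5:**
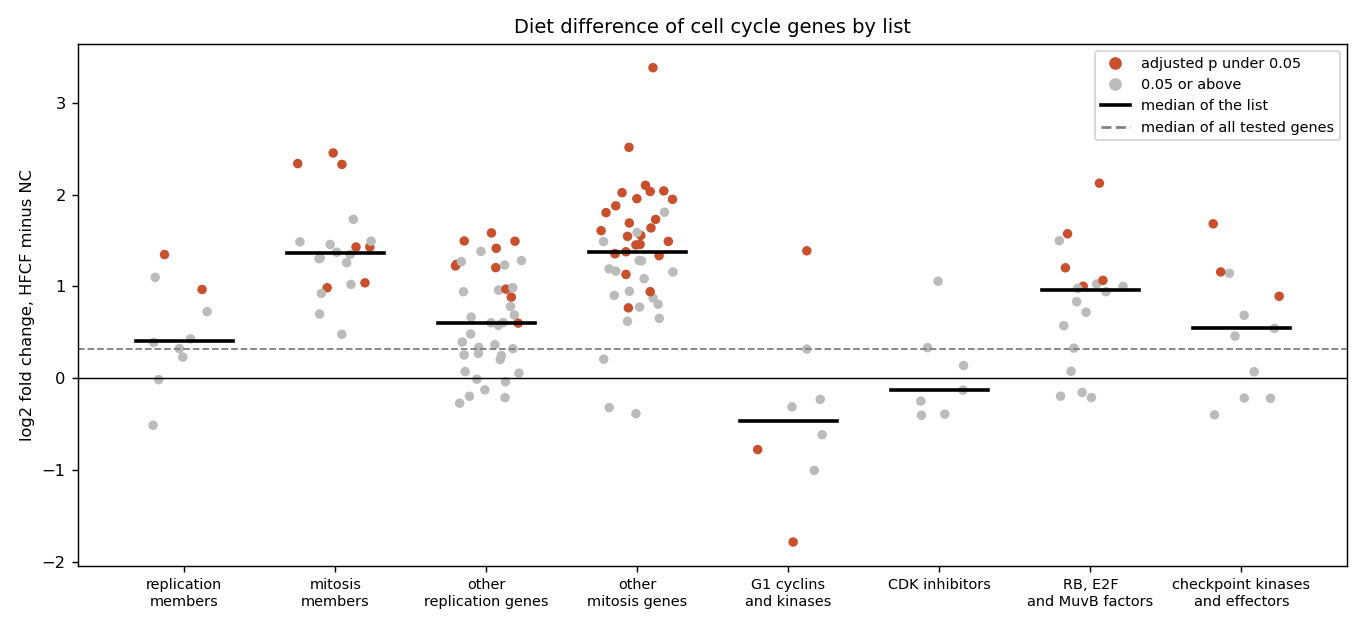
Log2 fold change of each tested gene (points, HFCF minus NC, called genes in red) and the median (black bar) in each cell cycle list, with the median of all tested genes as a dashed line. Among the other mitosis genes 55.6% are called higher, and the CDK inhibitors have 0 calls.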

How the data were processed

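Total RNA of the abdominal aorta was sequenced in 3 NC and 3 HFCF pigs, 1 library per pig. Per the labels and methods, the authors trimmed reads with cutadapt 1.9, checked them with FastQC, aligned them with HISAT2 and deposited FPKM values, which correct for exon length and mapped reads. FPKM is relative to the whole library, so a gain in some genes lowers the others. A listed 0.0001 FPKM was taken as 0, which 8661 genes showed in every library. Values of at least 0.1 mean FPKM were analysed as log2(FPKM + 0.1) with limma 3.58.1 in R 4.3.3 (a model of diet, empirical Bayes with trend) and Benjamini-Hochberg adjusted p-values over 15384 genes. The pig reference name table matched 14864 of the 30477 identifiers. The thresholds for DEGs are those the study states. No coordinates or sequences are given.

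The members and lists were chosen with earlier results of these data known. Every member was named, and in each other list the 4 genes with the largest absolute log2 fold change among those called. SPC24 and SPC25 were added after their values were seen. Alternatives comprised other pseudocounts (1 and 0.01), no filter, a mean of at least 1 FPKM, median-ratio scaling, quantile normalization, TPM, no variance trend, a replicate block and each library left out in turn, and the members found by identifier were added after the data had been seen. The script was tested on simulated data. Same-numbered pigs deviated from their group means with correlations of 0.0206, -0.0795 and -0.0724, and nothing in the labels pairs them.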

Additional observations from a re-analysis of the deposited data

How the results depend on the processing

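All 20 mitosis genes kept a log2 fold change above 0 under the alternatives in which they were tested, except PLK1 under quantile normalization (-0.19). The 7 mitosis genes called higher became 2 under quantile normalization and 3 to 5 when a library was left out, and 14 are called by the DEG rule against 7 by adjusted p alone. With a mean of at least 1 FPKM CCNE2 was not tested, and 1 of 8 replication genes and 6 of 11 mitosis genes were called higher. The share of all genes tested in that way was 26.9%. The 2 replication genes called higher became 1 with median-ratio scaling, 1 with TPM, 0 with quantile normalization and 0 to 2 when a library was left out. Quantile normalization called 1 replication gene lower, CCNE1, and turned the replication median to -0.0878, while the median lay between 0.15 and 0.70 when a library was left out. Single genes also turned: MCM2 (-0.14), MCM3 (-0.12), MCM4 (-0.058), MCM6 (-0.37) and CDT1 (-0.10) under quantile normalization, MCM4 (-0.0269) and MCM6 (-0.109) under median-ratio scaling, and MCM6 (-0.0196) with TPM. When a library was left out, MCM6 ranged from -0.0294 (without HFCF pig 1) to 0.365, and MCM7, at -0.02 with all pigs, from -0.0757 to 0.0654, above 0 without NC pig 3 and without HFCF pig 1. With the replicate block, 0 replication and 6 mitosis genes were called higher, against 14.5% of all tested genes, and the other lists gave 12 mitosis and 5 replication genes. Among the other lists, the 25 mitosis genes became 12, 8 and 12 and the 10 replication genes 5, 4 and 5 under median-ratio scaling, quantile normalization and TPM. The shares of all tested genes called higher were then 13.2%, 11.4% and 14.5%. Other mitosis genes called higher were 15 of 49 without the filter, against 13.3% of all genes tested in that way. With a mean of at least 1 FPKM they were 8 of 17, against 26.9%. The cause was not tested. Read depth is unknown, so values under 0.1 FPKM cannot be given a counting error.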

Other observations

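RGS5, a gene of mural cells, was chosen after its values were seen. It stood at 582.7 ± 243.4 FPKM in the NC pigs and at 373.6 ± 90.6 FPKM in the HFCF pigs (SD, n = 3). Its log2 fold change was -0.57 (limma adjusted p = 0.273). RGS4, looked up beside it, had a log2 fold change of -0.19 (limma adjusted p = 0.675).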
